A study of Mus musculus with 26 samples.

Results

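The genes described here are 32 genes of glycolysis and of the response to low oxygen, listed by name for their known roles in a selection made with earlier results of these data known. The annotation of the array named a probe set for 30 of them, and all 30 lay above the array median in enough arrays to be tested, among 12735 genes tested in all. They comprised 15 genes of glucose entry and glycolysis, 5 genes of lactate and pyruvate handling, 8 other hypoxia targets and both alpha subunits of the hypoxia-inducible factor, Hif1a and Epas1. The levels of Gpi1 and Eno1 were not analysed here, and these genes enter only the promoter windows.

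The arrays came from clonal adipose cell lines of mice on the 129SVE background strain (Taconic), of which 23 derive from inguinal fat and 3 from interscapular fat (BAT1, BAT6 and BAT8). Inguinal fat holds white and beige fat cells and interscapular fat holds brown fat cells. Each line is the progeny of a clone grown in culture, so it stands for its founder cell and not for the depot as a whole. Every culture was differentiated and then given forskolin, an activator of adenylyl cyclase, for 4 h, so no unstimulated clone was compared. The dose is written as 10 micromolar in the series text and as 10 millimolar in the sample protocols, and the difference was not resolved. Oxygen tension and glucose supply are not in the labels.

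Glycolysis splits glucose into pyruvate, and lactate dehydrogenase turns pyruvate into lactate when mitochondria do not take it up. When oxygen falls, prolyl hydroxylases (the Egln enzymes) stop marking the alpha subunits of the hypoxia-inducible factor for destruction, and the stabilised factor binds short DNA elements near genes of glucose uptake, glycolysis, angiogenesis and mitophagy. In fat cells the same glycolytic genes also answer to insulin and to adrenergic signals, and pyruvate kinase, hexokinase and phosphofructokinase are encoded by several genes that differ between tissues.

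Levels are given as log2(intensity + 16), in which 1 unit is close to a doubling for bright genes, and each clone was measured on 1 array. A level of 1 probe set cannot be set against that of another. Array medians lay between 40.4 and 45.8 intensity units and array means between 417 and 511. Of 14 tested markers of mature adipocytes, Aqp7 stood above the array median in 5 clones, Retn in 24, and Cidec and Lipe in 25 each. The others, among them adiponectin (Adipoq) and Fabp4, stood above it in all 26 clones. Markers of other cell types were mixed. Of 8 macrophage markers, Cd68, Adgre1, Csf1r and Cd14 were above the array median in all 26 clones, Lyz2 in 5, and Ptprc, Itgam and Cd52 in none. Of 5 endothelial markers, Kdr was above it in all 26, Tek in 2, and Pecam1, Cdh5 and Emcn in none. Differentiation varied: the mean of 14 adipocyte markers ran from 7.83 in I2 to 11.82 in D12 among inguinal clones and from 10.62 to 11.74 in the interscapular clones. These are bulk cultures, so fewer differentiated cells and less RNA per cell cannot be told apart. Clone N13 was the only array of scan session 4 and of chip lot 6, its array mean was the lowest, and its file alone carries the letters FSK, so results are given with and without it.

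N13 stood apart in these genes. It was the lowest of the 23 inguinal clones in 23 of the 30 genes, or 76.7%, whereas it was the lowest in 11.7% of all genes tested. The clone was singled out after its values were seen, and a single clone allows no test. Over the 30 genes, its median distance from the median of the other 22 inguinal clones was -1.03 log2 units, against -0.11 over all genes. Over the 14 adipocyte markers the same median was -1.57.

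In the glycolysis group, N13 was lowest in 13 of 15 genes. Pfkfb3, which makes the activator of phosphofructokinase, stood at 7.84 in N13, while the other inguinal clones ran from 9.42 in I2 to 11.54 in E4. Pfkp, the platelet-type phosphofructokinase, was 8.91 in N13 and at least 10.11 in every other inguinal clone. Hk2, the insulin-responsive hexokinase, was 10.45 in N13 and at least 11.23 elsewhere. Both gates of the pathway, phosphorylation of glucose and of fructose 6-phosphate, thus had a gene more than 1 log2 unit below its inguinal median in this clone.

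The enzymes of the lower part of the pathway also stood below all other inguinal clones in N13. Tpi1, triose phosphate isomerase, was 12.15 in N13 and ran from 13.02 to 13.79 elsewhere. Gapdh was 13.32 against 13.81 to 14.10, and Pgk1, phosphoglycerate kinase, was 13.14 against 13.63 to 14.14. N13 minus the median of the other inguinal clones was -0.71 log2 units for Aldoa, -0.71 for Pgam1 and -0.88 for Pkm, the muscle-type pyruvate kinase. For all of these genes the other 22 inguinal clones stayed within 1 log2 unit of each other.

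Isoforms of the same step are set side by side. Aldoc, the aldolase of brain, stood at 5.29 in N13 with an inguinal median of 5.22. It was above the array median in only 2 of 23 inguinal clones, and B5 read lowest at 4.60. Most of these readings are background signal, so the place of N13 among them is not read. Ldhb, the lactate dehydrogenase subunit of heart, was 9.87 in N13 against an inguinal median of 9.88, while Ldha, the muscle subunit, was 13.29 in N13 and at least 13.78 in the other inguinal clones. Pfkl, the liver phosphofructokinase, was lowest in F4 (7.99) and not in N13 (8.40).

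Among lactate and pyruvate genes, N13 was lowest in 2 of 5. Pdk1, the kinase that closes pyruvate dehydrogenase, was 8.88 in N13 and at least 9.33 in the other inguinal clones. Slc16a1, a carrier of lactate and pyruvate, was lowest in I2 (10.41) with N13 at 10.95, and Slc16a3, the lactate exporter of glycolytic cells, was lowest in X9 (5.55) with N13 at 5.72.

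The other hypoxia targets held some of the widest gaps, with N13 lowest in 7 of 8. Egln3, an oxygen-sensing prolyl hydroxylase that is itself a target, was 7.50 in N13, while the other inguinal clones ran from 9.35 in G18 to 11.30 in X9. Ankrd37, an ankyrin-repeat protein, was 6.98 in N13 against 8.61 to 10.68. Bnip3, a receptor for mitophagy, was 11.06 against 12.12 in I2 and a highest value of 13.82 in D12. For all 3 genes the next inguinal clone stood more than 1 log2 unit above N13.

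Egln1, the main oxygen-sensing prolyl hydroxylase, was 9.13 in N13 and at least 10.73 in every other inguinal clone. Vegfa, the angiogenic growth factor, was 11.57 in N13, and N13 minus the median of the other inguinal clones was -0.97. The same difference was -1.18 for P4ha1 and -0.71 for P4ha2, both collagen prolyl hydroxylases. Ndrg1, a stress-responsive gene, was lowest in I2 at 10.63, with N13 next at 11.09.

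The factor subunits differed from each other in N13. Epas1, which encodes HIF-2 alpha, was 6.60 in N13 and at least 7.59 in the other inguinal clones. Hif1a stood at 12.08 in N13, within the range of the other inguinal clones, and its lowest value of 11.57 was in X3. These are transcript levels, and the factors are known to be controlled mainly at the protein.

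**Figure D1:**
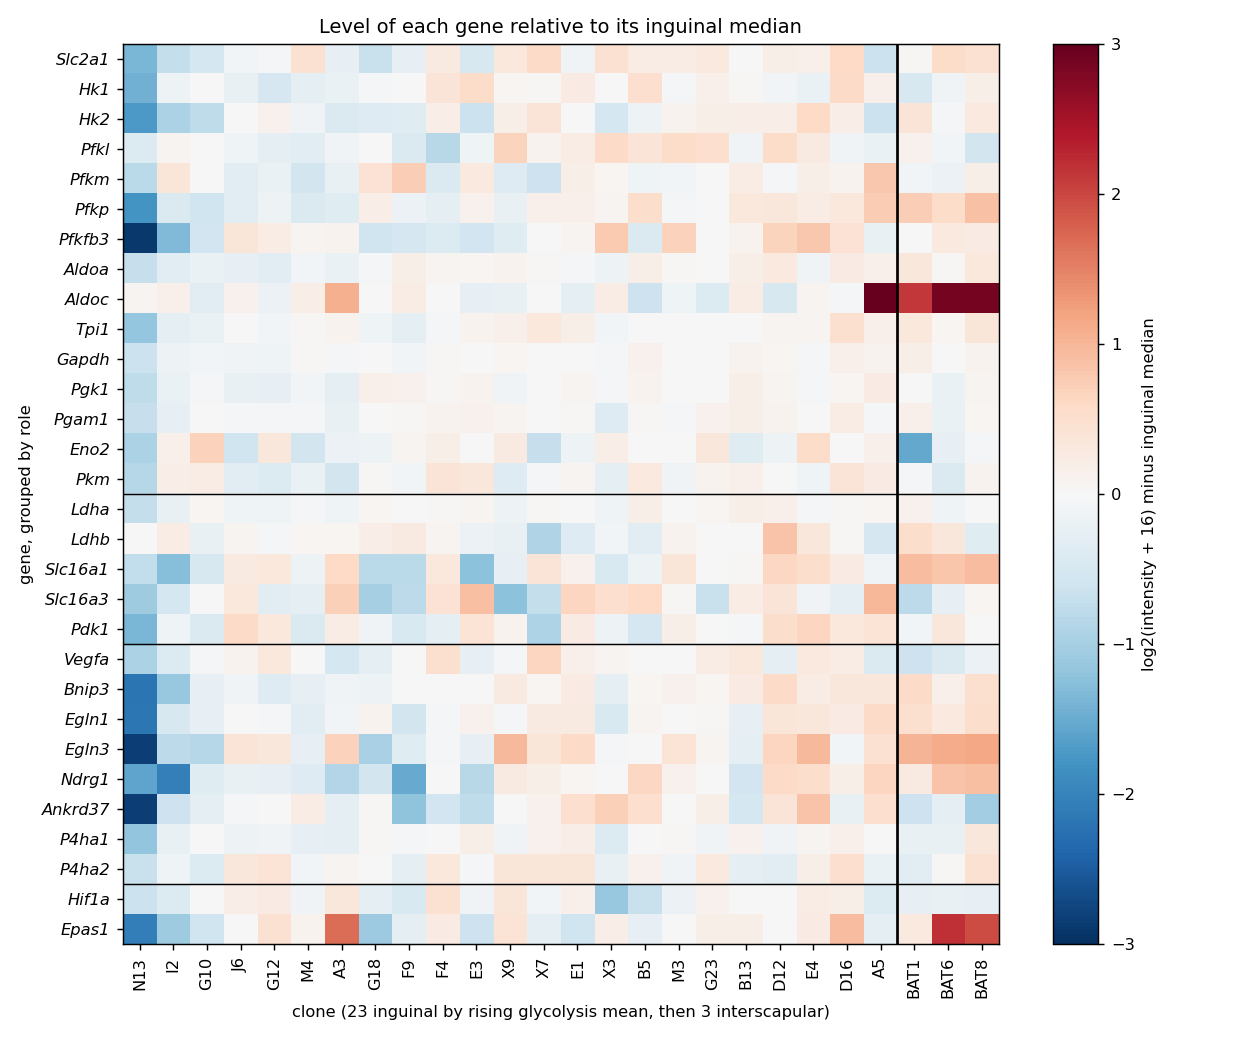
Level of the 30 genes (rows, grouped by role) in the 26 clones (columns, 23 inguinal ordered by their glycolysis mean and then 3 interscapular), as log2(intensity + 16) minus the inguinal median of the gene. N13, at the left, is the lowest inguinal clone in 23 of 30 genes, while Aldoc is high in A5 and in the interscapular clones.

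Genes outside the 32 gave a comparison. Of 37 tested genes of a further list of hypoxia targets and hypoxia-factor regulators, N13 was the lowest inguinal clone in 20, or 54.1%. Ero1a, an oxidase of protein folding, stood at 9.23 in N13 and at least 12.07 elsewhere in the inguinal group, the widest gap of that list. Plod2, a collagen lysyl hydroxylase, was 8.31 against at least 9.12, and Ak4, a mitochondrial adenylate kinase, was 8.06 against at least 9.37. These 3 examples were chosen after their values were seen. Of 20 tested genes of a further list of glycolysis and pyruvate metabolism, which holds pyruvate dehydrogenase and glucose-producing enzymes, N13 was lowest in 2, or 10%. Of 8 pentose phosphate and glycerol phosphate genes it was lowest in 3, and it stood above the median of the others for the transketolase gene Tkt (12.07 in N13).

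Several measures of the N13 array are given beside this pattern, and their part in it was not tested. The mean of its adipocyte markers was 8.79, above I2 (7.83) and below G10 (8.88), and it was the lowest inguinal clone in 2 of 14 of those markers. It was lowest in 2 of 5 tested macrophage markers and in none of 6 preadipocyte markers. Its Gapdh control probe sets gave a log2 ratio of the 3' to the 5' signal of 0.17, where 23 clones lay between -0.16 and 0.67. Its median Pearson correlation with the other inguinal arrays over all genes was 0.941, close to that of X3 (0.939) and I2 (0.943). The dimmer probe sets of the same genes, which were not used otherwise, placed N13 lowest in 15 of 38, or 39.5%. Because no other clone shared its scan session or chip lot, the clone, the session and the lot cannot be told apart.

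Without N13, I2 was the clone most often lowest, in 10 of the 30 genes (33.3%, against 7.62% of all genes). It is also the least differentiated clone by its markers. At the upper end, A5 and D16 were each highest in 7 genes, or 23.3%, against 8.92% and 3.36% of all genes. A5 was highest for Pgk1 (14.14), Pfkp (11.46) and Aldoc (8.20), and D16 for Slc2a1 (13.70), Tpi1 (13.79) and Pkm (13.46).

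The inguinal clones differed more in some genes than in others. The median SD among 23 inguinal clones was 0.41 over the 30 genes and 0.32 over all genes tested, and it was 0.35 and 0.32 without N13. The 3 genes with the largest SD were Egln3 (0.81), Pfkfb3 (0.80) and Ankrd37 (0.77), and without N13 these SDs were 0.55, 0.54 and 0.51. For the 9 genes with a mean of at least 13, the median SD was 0.23, against 0.19 for the 187 genes tested that were as bright, and 0.18 against 0.18 without N13. Thus Gapdh varied with an SD of 0.083 once N13 was set aside, and Ldha with 0.11.

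Whether hypoxia targets moved with glycolysis was first described with group means. The mean of the 15 glycolysis genes ran from 10.24 in N13 and 11.06 in I2 to 11.58 in A5 among inguinal clones. The mean of the 8 other hypoxia targets ran from 10.07 in N13 and 11.14 in I2 to 12.31 in E4. Clones low in one mean tended to be low in the other: Pearson's r was 0.91 and Spearman's rho 0.72 over 23 clones. The points share their arrays, and with them any difference in scaling or RNA quality, so no p-value is given.

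Leaving out N13 gave r = 0.70 and rho = 0.68 over 22 clones. N13 and I2 are also the clones farthest from the median glycolysis mean, and without both r was 0.61 and rho 0.63 over 21 clones. Within scan session 1, which does not hold N13, r was 0.79 over 17 clones, and within scanner 2 it was 0.73 over 11. Within scanner 1, which holds N13, it was 0.95 over 12. After the adipocyte marker mean had been regressed out of both means, r was 0.87 over 23 clones, N13 among them. No such value was computed without N13. The relation between the means was therefore positive in each of these subsets, with a size that depended on N13.

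**Figure D2:**
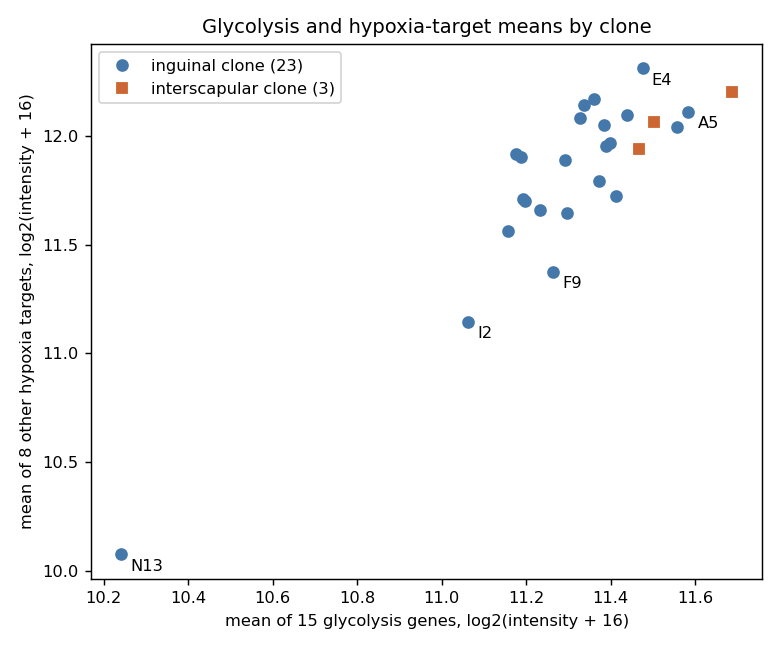
Mean of 8 other hypoxia targets (vertical axis) against mean of 15 glycolysis genes (horizontal axis), both as log2(intensity + 16), 1 point per clone, with inguinal clones as circles and interscapular clones as squares. N13 lies far below the rest at 10.24 and 10.07, I2 is next, and the interscapular clones lie at the upper right.

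Correlations of single gene pairs were lower than that of the group means. A group mean averages over genes, so these are unlike measures. Between the 15 glycolysis genes and the 8 hypoxia targets the median Pearson r over 120 pairs was 0.55 with 23 inguinal clones and 0.22 without N13. Within the glycolysis genes it was 0.47 and 0.16, and within the hypoxia targets 0.63 and 0.36. The median over all pairs of genes tested was 0.013 and 0.01. Without N13 the highest correlations were those of Aldoa with Gapdh (0.84), Ldha with Pgk1 (0.81) and Aldoa with Pgk1 (0.78), all enzymes of glycolysis or lactate production. Aldoa with the hypoxia target Bnip3 came next (0.776). The lowest was that of Pfkm, the muscle phosphofructokinase, with the glucose transporter Slc2a1 (-0.65). The pairs were chosen by rank and are given as a description.

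A fit for each gene asked which genes followed Pgk1, a glycolytic anchor, among the 23 inguinal clones. Of the 9 hypoxia targets outside glycolysis, which here include Pdk1, 3 had a positive slope past an adjusted p of 0.05 in limma, where 1.63% of all genes did. Bnip3 changed by 2.27 log2 units per unit of Pgk1 (SE 0.33, adjusted p = 0.000788), Egln1 by 1.97 (SE 0.35, adjusted p = 0.00465) and P4ha1 by 1.16 (SE 0.19, adjusted p = 0.00302). Of 18 genes of glycolysis and lactate handling, 9 passed. They were Hk1 (slope 1.64), Pfkm (1.26), Pfkp (2.15), Aldoa (0.95), Tpi1 (0.999), Gapdh (0.65), Pgam1 (0.77), Pkm (1.21) and Ldha (0.81).

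The reverse fit used P4ha1, a hypoxia target outside glycolysis, as the anchor, by its brightest probe set, which was lowest in N13. A dimmer P4ha1 probe set did not show this: it read 7.88 in N13 against an inguinal median of 7.93 (range 5.89 to 9.33). Of 19 genes of glycolysis and lactate handling, 10 had a positive slope past the threshold, against 1.59% of all genes. With quantile normalization 2 passed (Hk1 and Pfkp), and with the mean of all probe sets of a gene 2 passed (Pfkp and Gapdh). The 10 comprised Hk1 (1.19), Hk2 (1.24), Pfkp (1.40), Aldoa (0.58), Tpi1 (0.86), Gapdh (0.46), Pgk1 (0.62), Pgam1 (0.63), Pkm (0.84) and Ldha (0.56). Among the hypoxia targets, Bnip3 (1.66), Egln1 (1.63), Egln3 (1.79) and Vegfa (0.81) passed. Neither Hif1a (0.55, adjusted p = 0.295) nor Epas1 (0.91, adjusted p = 0.367) passed against P4ha1, nor did they against Pgk1 (0.085 and 0.84, adjusted p = 0.83 and 0.565). Ldhb had a slope of -0.20 on P4ha1 that did not pass.

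N13 decided these calls. Without it, limma called none of the 29 genes tested in either fit and none of 12734 genes in all (0% in both fits). At an unadjusted p under 0.05, 9 of the 29 had a positive slope on Pgk1 and 8 on P4ha1, out of 560 and 920 of all genes. Without N13, on P4ha1, the slope of Pgam1 was 0.66 (SE 0.21, adjusted p = 0.214) and that of Pkm 1.04 (SE 0.33, adjusted p = 0.214), whereas that of Egln3 was -0.0075 (SE 0.73, adjusted p = 0.992) and that of Pfkfb3 -0.27 (SE 0.71, adjusted p = 0.913). On Pgk1, the slope of Pfkp was 1.84 (SE 0.39, adjusted p = 0.165) and that of Bnip3 1.43 (SE 0.46, adjusted p = 0.258). With scan session as a block, which removes N13 in effect, none of the 9 hypoxia targets was called on Pgk1 and none of the 19 glycolysis and lactate genes on P4ha1. At an unadjusted p under 0.05 in these limma fits, 1 and 3 had a positive slope. The shares of all genes under this block are not given here, so these counts are not read against them.

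**Figure D3:**
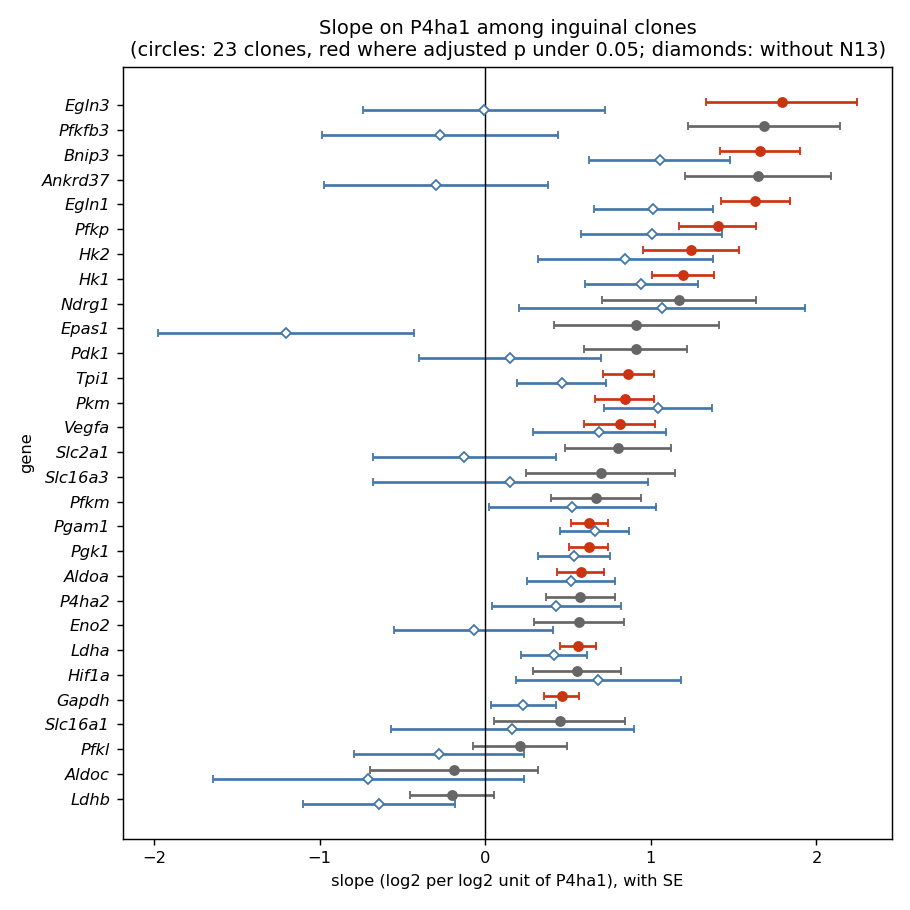
Slope of each gene on P4ha1 among inguinal clones, in log2 units per log2 unit of P4ha1, with its SE. Circles are 23 clones, red where the adjusted p was under 0.05, and diamonds are 22 clones without N13, of which none passed. Egln3, Pfkfb3 and Ankrd37 lose their positive slope without N13, while Hk1, Pgam1 and Pkm keep slopes of 0.94, 0.66 and 1.04.

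Genes of the further hypoxia list behaved in the same fits as follows. Of 37 tested, 10 had a called positive slope on Pgk1 and 15 on P4ha1, against 1.63% and 1.59% of all genes. None of them, and no gene at all, did in either fit without N13. Without N13, 7 of the 37 had a positive slope on Pgk1 at an unadjusted p under 0.05 and 12 on P4ha1, against 560 and 920 of 12734 genes. Of the 20 further glycolysis and pyruvate genes, none had a called positive slope on either anchor over 23 clones. Adpgk had a called negative slope on Pgk1 (-1.33, adjusted p = 0.0384 by limma), as did 79 of 12734 genes. At an unadjusted p under 0.05, 1 of the 20 had a positive slope on each anchor, against 1430 of all genes on Pgk1 and 1476 on P4ha1.

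The DNA upstream of both anchors, of 4 genes called on both and of 1 gene called on neither is shown because the factor's core element can be looked for in it. The window was 250 bases before the start site and 50 after it, from RefSeq annotation on build GRCm38.p6, and 30 of the 32 genes have at least 1 window there. Gpi1 and Eno1 are among these, while Epas1 and Ndrg1 are not, so they are not the same 30 genes as those measured. The core ACGTG was searched on both strands, so that a palindromic CACGTG counts on each. It was present in 25 of the 44 windows of these genes (56.8%) and in 6447 of 32851 windows of all genes (19.6%). The related core GCGTG, a variant, was present in 56.8% of the windows of these genes and 32.4% of all windows, and either core in 79.5% and 43.8%. By gene, 22 had ACGTG in at least 1 window. Of the 16 genes called on either anchor with all 23 inguinal clones, 14 had it, and Pfkp and Tpi1 did not. Of the 14 genes called on neither, 12 have a window and 8 of these had it. No share by gene over all genes is given, and the calls were lost without N13, so no conclusion is drawn from these counts. The 250 bases before the start are given 5' to 3' on the strand of the gene, with every ACGTG or its complement CACGT in capitals.
Pgk1 (chrX:106186850-106187099, plus strand): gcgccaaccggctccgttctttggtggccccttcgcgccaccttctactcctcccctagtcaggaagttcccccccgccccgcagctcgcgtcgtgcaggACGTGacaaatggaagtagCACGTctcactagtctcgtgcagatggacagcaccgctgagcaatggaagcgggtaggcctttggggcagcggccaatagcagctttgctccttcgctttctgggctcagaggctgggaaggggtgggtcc
P4ha1 (chr10:59323046-59323295, plus strand): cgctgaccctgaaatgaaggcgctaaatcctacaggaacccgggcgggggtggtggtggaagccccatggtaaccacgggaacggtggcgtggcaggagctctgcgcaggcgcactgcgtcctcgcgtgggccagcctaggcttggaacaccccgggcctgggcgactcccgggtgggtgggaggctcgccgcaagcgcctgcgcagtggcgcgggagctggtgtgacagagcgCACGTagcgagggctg
Bnip3 (chr7:138909507-138909756, minus strand): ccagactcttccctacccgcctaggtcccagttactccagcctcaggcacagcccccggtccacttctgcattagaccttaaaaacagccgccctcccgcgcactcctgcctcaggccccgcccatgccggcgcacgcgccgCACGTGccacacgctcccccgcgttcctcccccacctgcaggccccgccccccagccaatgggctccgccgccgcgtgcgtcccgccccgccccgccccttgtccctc
Egln1 (chr8:124949255-124949504, minus strand): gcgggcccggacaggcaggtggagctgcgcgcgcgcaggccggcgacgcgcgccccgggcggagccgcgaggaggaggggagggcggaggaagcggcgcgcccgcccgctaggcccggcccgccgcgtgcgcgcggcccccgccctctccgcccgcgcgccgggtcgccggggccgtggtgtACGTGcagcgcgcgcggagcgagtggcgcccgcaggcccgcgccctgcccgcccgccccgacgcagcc
Ldha (chr7:46845554-46845803, plus strand): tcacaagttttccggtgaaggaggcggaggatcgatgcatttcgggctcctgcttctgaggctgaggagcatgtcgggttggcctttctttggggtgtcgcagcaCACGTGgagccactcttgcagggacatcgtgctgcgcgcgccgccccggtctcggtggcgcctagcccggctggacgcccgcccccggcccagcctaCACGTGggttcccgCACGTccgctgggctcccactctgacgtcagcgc
Tpi1 (chr6:124814159-124814408, minus strand): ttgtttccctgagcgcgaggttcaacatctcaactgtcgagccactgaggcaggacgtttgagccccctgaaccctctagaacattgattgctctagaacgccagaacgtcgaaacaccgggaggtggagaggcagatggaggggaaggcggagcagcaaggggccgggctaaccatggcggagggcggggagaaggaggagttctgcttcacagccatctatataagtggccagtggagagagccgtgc
Slc16a1 (chr3:104638414-104638663, plus strand): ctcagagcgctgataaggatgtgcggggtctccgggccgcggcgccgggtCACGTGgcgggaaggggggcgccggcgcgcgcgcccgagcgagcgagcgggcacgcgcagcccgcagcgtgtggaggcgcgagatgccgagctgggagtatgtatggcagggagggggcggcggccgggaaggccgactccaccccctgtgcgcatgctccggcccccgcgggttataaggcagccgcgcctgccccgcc
Pgk1 held 2 matches, P4ha1 1, Bnip3 2 (1 palindrome), Egln1 1 and the first start of Ldha 5, while the second start of Ldha, not printed, held 0. Tpi1, called on both anchors, held 0, and Slc16a1, called on neither, held 2 (1 palindrome). The printed genes were chosen after these counts were seen. A match is a run of letters and not a measured binding site.

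The same genes were set against the degree of differentiation. Against the mean of 14 adipocyte markers, 7 of the 30 genes had a positive slope past the threshold over the 23 inguinal clones, against 6.34% of all genes. Slc2a1, the basal glucose transporter GLUT1, had a slope of 0.36 (SE 0.074, adjusted p = 0.00191), and Pfkfb3 one of 0.58 (SE 0.11, adjusted p = 0.00116). The others were Hk2 (0.35), Slc16a1 (0.31), Bnip3 (0.33), Ndrg1 (0.39) and Epas1 (0.42). Pgk1 (0.066), Gapdh (0.068), Ldha (0.067) and Hif1a (0.038) did not pass.

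Without N13, 4 of the 30 passed (Slc2a1, Hk2, Pfkfb3 and Bnip3), where 5.94% of all genes had a called positive slope. Without both I2 and N13, the clones farthest from the median marker level, Slc2a1 and Pfkfb3 remained. The further glycolysis and pyruvate list gave 12 called positive slopes of 20 genes, with and without N13. Pcx, pyruvate carboxylase, at 0.94 log2 units per unit of the marker mean, the insulin-responsive transporter Slc2a4 at 0.53 and the mitochondrial pyruvate carrier Mpc1 at 0.53 were among them, named after their values were seen.

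Between depots, 3 of the 30 genes were higher in the interscapular clones, where 4.55% of all genes tested were called higher, and 0 were lower, where 5.65% were called lower by limma. At an unadjusted p under 0.05, 6 were higher and 1 lower, where 11.7% of all genes were higher and 13.9% lower. The median difference over the 30 genes was 0.12 log2 units, with 21 above 0, and over all genes tested it was -0.02. The interscapular and inguinal values did not overlap for 2 of the 30 genes, Slc16a1 and Egln3, as for 2.87% of all genes. Of the 3 called genes, Aldoc passed the filter on dim genes only with the interscapular clones, where it is high.

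Aldoc showed the widest difference of the 30. It stood at 7.33 in BAT1, 8.08 in BAT6 and 8.09 in BAT8, and at 4.60 in B5, 5.22 at the median and 8.20 in A5 among inguinal clones. A5 alone of the 23 inguinal clones reached the interscapular range, with A3 next at 6.27. The difference was 2.51 log2 units (SE 0.40). Only 2 of 23 inguinal clones had Aldoc above their array median, so the difference is set against background signal. Aldoc passed the filter of 3 arrays only with the interscapular clones, where it is high, so no p is given for it. A second, dimmer Aldoc probe set gave -0.29.

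Epas1 was 8.97 in BAT1, 10.87 in BAT6 and 10.64 in BAT8. Inguinal clones ran from 6.60 in N13 through a median of 8.68 to 10.36 in A3, and 4 of them reached the lowest interscapular value. The difference was 1.59 (SE 0.44, adjusted p = 0.0196), with 0.58 from a dimmer probe set. BAT1 lay among the inguinal clones and the other 2 interscapular clones above all of them. Without BAT6 the difference was 1.23 (adjusted p = 0.202), and without BAT8 it was 1.35 (adjusted p = 0.133).

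Slc16a1 was 12.61, 12.51 and 12.62 in the interscapular clones. Inguinal clones ran from 10.41 in I2 through 11.69 to 12.30 in D12, below all 3 interscapular clones. The difference was 1.01 (SE 0.31, adjusted p = 0.0371). Without any 1 of the interscapular clones it stayed between 0.99 and 1.04 and no longer passed (adjusted p = 0.117 to 0.134), and a very dim second probe set gave 0.21.

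Egln3 and Pfkp came next. Egln3 was 11.33, 11.43 and 11.48 in the interscapular clones, just above the highest inguinal clone, X9 at 11.30, and its difference of 1.13 (SE 0.45) had an adjusted p of 0.105. Pfkp was 11.42, 11.24 and 11.57 against an inguinal range of 8.91 to 11.46, with a difference of 0.79 (adjusted p = 0.0747). Without N13 both passed: Egln3 at 1.005 (adjusted p = 0.0348) and Pfkp at 0.71 (adjusted p = 0.0234), which made 5 genes called. With all clones, dimmer probe sets gave 0.97 for Egln3, and 0.52 and -0.27 for Pfkp. With the mean of all probe sets of a gene, Pfkp differed by 0.35 (adjusted p = 0.38 by limma).

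**Figure D4:**
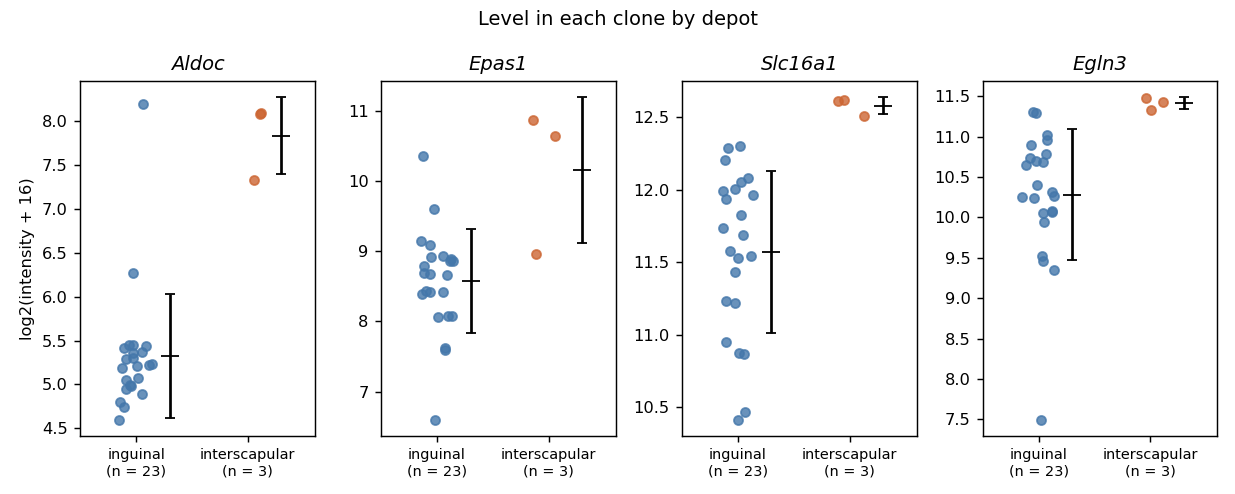
Levels as log2(intensity + 16) of Aldoc, Epas1, Slc16a1 and Egln3 in each of 23 inguinal and 3 interscapular clones, with the mean and SD beside each group. For Slc16a1 and Egln3 all 3 interscapular clones lie above all inguinal clones, while A5 reaches the interscapular range of Aldoc and BAT1 lies within the inguinal range of Epas1.

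Some enzymes of the trunk of glycolysis and the anchors showed small depot differences. Pgk1 was 13.92, 13.70 and 13.97 in interscapular clones and ran from 13.14 through 13.90 to 14.14 in inguinal clones, a difference of 0.0042 with a 95% interval from -0.28 to 0.28. Ldha differed by 0.035 (interval -0.22 to 0.29) and Gapdh by 0.13 (interval -0.11 to 0.36). P4ha1 was 12.51, 12.51 and 13.06 against a range of 11.56 through 12.73 to 12.93, a difference of 0.048 (interval -0.32 to 0.41). Hif1a was 12.48, 12.51 and 12.47, within the inguinal range of 11.57 through 12.72 to 13.17, with a difference of -0.14 (interval -0.60 to 0.32). Of these 5 genes, P4ha1 had the highest upper limit and Hif1a the lowest lower limit. Among the other trunk enzymes, Tpi1 (0.27, interval -0.10 to 0.64) and Aldoa (0.27, interval -0.03 to 0.56) had larger estimates that did not pass. Pgam1 differed by 0.032 and Pkm by -0.086. Eno2, the enolase of neurons, at -0.57 (adjusted p = 0.17) and Ankrd37 at -0.50 (adjusted p = 0.499) were the most negative estimates.

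**Figure D5:**
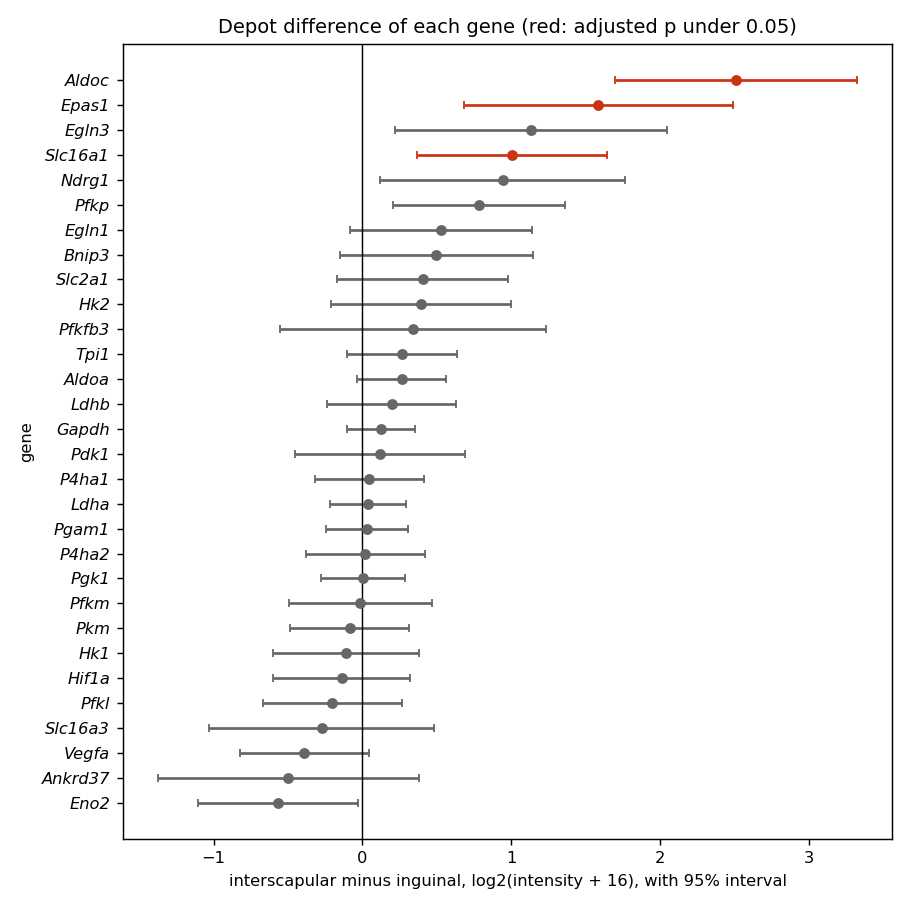
Difference between the interscapular and inguinal means of each of the 30 genes, as log2(intensity + 16), with its 95% interval from limma. Epas1 and Slc16a1, in red, passed an adjusted p of 0.05, and 21 of the 30 estimates lie above 0. Aldoc is red too, but it passed the filter on dim genes only with the interscapular clones, where it is high. Its color is therefore no test result.

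Other measures of the depots are given beside these results. The adipocyte marker mean lay at 10.62 to 11.74 in interscapular clones and at 7.83 to 11.82 in inguinal clones. With it as a covariate only Aldoc, which passed the filter only with the interscapular clones, was called (2.64), where 6.47% of all genes were. Epas1 then differed by 1.22 (adjusted p = 0.0823) and Slc16a1 by 0.70 (adjusted p = 0.147). The mean of the macrophage markers lay at 6.87 to 7.06 in interscapular and 6.07 to 6.79 in inguinal clones, without overlap. Of its genes, Cd68 was higher in interscapular clones (2.12, adjusted p = 0.00277), and Ptprc, Itgam and Cd52, which mark leukocytes, were above the array median in no clone. Its part in the depot differences was not tested. BAT6 had a Gapdh signal of 678 intensity units at the 5' control probe set against 15796 at the 3' one, a gap that F4 shared in part (5289 against 16186). Without BAT6 and F4, 1 gene, Aldoc, was called, at 2.38. Within scanner 1, which holds 1 interscapular clone, the Aldoc difference was 2.72.

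The further lists were read against the same shares of all genes, 4.55% called higher and 5.65% called lower. Of 37 hypoxia genes, 3 were called higher in interscapular clones and 0 lower by limma (7 higher and 1 lower at an unadjusted p under 0.05, against 11.7% and 13.9% of all genes). They were the carbonic anhydrases Car9 and Car12 (1.96, adjusted p = 0.00842) and the lipoprotein receptor Vldlr (1.39, adjusted p = 0.0115). Car9 stood at 9.94, 10.24 and 9.89 in BAT1, BAT6 and BAT8 and was above the array median in 0 of the 23 inguinal clones. It passed the filter only through the 3 interscapular clones, so it had to differ, and no difference or p is given for it. Of 20 glycolysis and pyruvate genes, 3 were higher and 0 lower by limma (8 higher and 1 lower at an unadjusted p under 0.05): the pyruvate dehydrogenase kinases Pdk4 (2.72, adjusted p = 0.000667) and Pdk2 (1.03, adjusted p = 0.00964), and the phosphatase subunit Pdp2 (0.80, adjusted p = 0.0483). Pdk1, the kinase among the 32 genes, differed by 0.12 (SE 0.28, adjusted p = 0.833). Of 8 pentose phosphate and glycerol phosphate genes, Pgd was lower, by -0.71 (adjusted p = 0.00648), with BAT6 at 11.34 as its lowest clone.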

How the data were processed

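The authors deposited 1 linear intensity per probe set and array for an Affymetrix mouse whole-genome array, per the labels. The probe summary and any scaling of arrays are not given in the sources used here. Of 45101 probe sets, 34945 carried 1 gene symbol, 932 several and 9211 none in the platform annotation, which can be old. Only probe sets with 1 symbol were used, plus 3 control probe sets of Gapdh, and for each of 18194 named genes the probe set of highest mean level was taken. For Gapdh this was the 3' control. Genes above the array median on 3 or more arrays were tested.

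The deposited intensities were turned into log2(intensity + 16) without rescaling arrays, which understates differences of dim genes. The depot difference, interscapular minus inguinal, was fitted in limma 3.58.1 under R 4.3.3 (lmFit, then eBayes). Slopes on Pgk1, P4ha1 and the mean of 14 adipocyte markers were fitted with limma over inguinal clones. Tests were two-sided, and p-values were adjusted by the Benjamini-Hochberg method across every gene tested, with a threshold of 0.05. With 1 array per clone, p-values describe the spread among clones, and the number of arrays limits the precision, with 3 interscapular clones. Scanner, chip lot and scan session were read from the experiment file deposited for each array, and a session joins scan dates at most 3 days apart. No deposited column of values was left unused. No array was a copy of another.

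The genes and the lists were chosen with earlier results of these data known. Named with their values were genes called between depots, Pgk1, P4ha1, Hif1a, Epas1 and the 3 of largest inguinal SD, with slopes for genes called in the slope fits and, from the further lists, the genes called between depots. Other examples are marked as chosen after their values were seen. Members of a family such as Aldoa can share probes with near copies. Alternatives covered scaling, pseudocount, filter, probe sets, batches, anchors, differentiation and single clones. The fits were tested on simulated data. Promoter windows came from RefSeq (GRCm38.p6). The files name no genome build. Figures were drawn with matplotlib 3.10.9.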

Additional observations from a re-analysis of the deposited data

How the results depend on the processing

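Some counts depended on single clones. Settings that leave out N13, N13 with I2, or BAT6 with F4, and those that replace the Gapdh probe set, were chosen after the data were seen. Between depots, 3 genes were called; 5 were without N13, 1 with the adipocyte markers as a covariate, 1 within scan session 2, 0 within scanner 1 and 1 without BAT6 and F4. The share of all genes called moved too, from 10.2% to 10.3%, 6.47%, 1.63%, 0.793% and 3.5% in that order. Scan session 2 and scanner 1 hold 1 interscapular clone each, which is assumed to vary like the inguinal clones. Leaving out an interscapular clone gave 1 to 2. With the 5' control probe set Gapdh differed by -1.19 (adjusted p = 0.141), against 0.13 with the 3' one. Aldoc stayed between 1.11 and 3.18 and was called in 21 of 22 alternatives, Epas1 in 15 of 22 and Slc16a1 in 10 of 22. The 22 include the settings that replace only the Gapdh probe set, which could not change these 3 genes. Aldoc passed the filter on dim genes only with the interscapular clones, so its count is no measure of support. Of the hypoxia targets, 3 followed Pgk1; 0 did with scan session as a block, without N13, without N13 and I2, and without N13 and A3, the clones farthest from the median of Pgk1. With Tpi1 as the anchor 6 did. Of the glycolysis and lactate genes, 10 followed P4ha1; 0 did with scan session as a block, without N13, without N13 and I2, and without N13 and X3, the farthest in P4ha1. With quantile normalization, or with the mean of all probe sets of a gene, 2 did, and the cause was not tested. Against the adipocyte markers 7 were called, with 4 under scan session as a block, 4 without N13 and 2 without I2 and N13, and Slc2a1 and Pfkfb3 were called in 11 of 11 alternatives. Except without N13, the shares of all genes called in the alternative slope settings are not given here. The counts in those settings are therefore not read against a background. The correlation of the group means was 0.91 over 23 clones, 0.70 without N13, 0.61 without N13 and I2 (also the clones farthest from the median) and 0.73 within scanner 2. No paired analysis was possible because the labels give the depots no shared replicate numbers. The 3 interscapular clones, 1 array each, limit what the depot comparison can detect.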
